A study of Mus musculus with 6 samples.

Results

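The 89 cytosolic ribosomal protein genes were taken from the 55492 genes of the deposited expression table by their symbols. A symbol had to be Rpl or Rps with a number, which only an a, x or l and a digit could follow. Rplp0 to Rplp2 and Rpsa were taken as well. Of the 89 genes, 53 belong to the large and 36 to the small ribosomal subunit by name. RNA came from whole brains of mice at postnatal day 16, which had been dissociated and enriched with magnetic beads for O4, a lipid antigen of late oligodendrocyte progenitors and immature oligodendrocytes. Each library held poly(A) RNA of 1 mouse, and 3 WT mice were compared with 3 Npc1-/- mice, which lack the lysosomal cholesterol exporter NPC1 in every cell. The Npc1-/- mice carried the Npc1nih allele on both chromosomes and were F1 hybrids from Npc1+/- parents on BALB/cJ and C57BL6/J backgrounds, and littermates were genotyped before use. No group was treated.

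Ribosomal proteins assemble with ribosomal RNA in the nucleolus, and each is normally needed in about equal number in a ribosome. Their mRNAs are short and abundant, and they begin with a C followed by a run of pyrimidines, the terminal oligopyrimidine (TOP) motif, through which the growth-regulating kinase complex mTORC1 controls their translation. Oligodendrocytes make large amounts of membrane and protein while they form myelin. Poly(A) RNA-seq measures the mRNA, not its translation.

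The pyrimidine runs at the start sites are shown here because they are the sequence feature these mRNAs share by reputation. RefSeq start sites on GRCm38.p6 were found for 64 members, which had 76 promoters in all. In the windows below, 15 bases lie before and 15 bases from the start site onwards, each is written 5′ to 3′ on the strand of the gene, and capitals mark the longest run of C or T. Where a gene had several start sites, the window with the longest run is given. The first 3 had runs of 21, 19 and 18 bases, and the others were chosen because the values below turn on them.
Rpl7a, chr2:26910792-26910821, plus strand: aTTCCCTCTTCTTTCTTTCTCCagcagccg
Rpl27a, chr7:109519180-109519209, plus strand: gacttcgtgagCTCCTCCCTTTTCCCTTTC
Rpl35, chr2:39005117-39005146, minus strand: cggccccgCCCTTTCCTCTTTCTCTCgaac
Rpl13a, chr7:45128731-45128760, minus strand: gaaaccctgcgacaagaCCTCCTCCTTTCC
Rps6, chr4:86857353-86857382, minus strand: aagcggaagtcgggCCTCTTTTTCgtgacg
Rps24, chr14:24490663-24490692, plus strand: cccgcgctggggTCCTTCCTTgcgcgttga
Rps12, chr10:23787195-23787224, minus strand: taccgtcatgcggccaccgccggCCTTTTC
Rplp0, chr5:115559452-115559481, plus strand: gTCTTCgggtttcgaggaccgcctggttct
Rpl22l1, chr3:28805493-28805522, plus strand: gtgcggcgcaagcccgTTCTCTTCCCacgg
Rps27l, chr9:66946071-66946100, plus strand: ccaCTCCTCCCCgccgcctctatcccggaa
Rpl7l1, chr17:46782642-46782671, minus strand: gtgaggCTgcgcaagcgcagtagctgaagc

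A run of at least 8 pyrimidines lay in this window in 29 of the 76 member promoters (38.2%), against 3943 of all 32851 promoters in the table (12%). The letters CCGGAAG, the core of the sites bound by ETS factors such as GABP, lay on either strand of the region from 250 bases before to 50 bases after the start in 27 member promoters (35.5%), against 2910 of all promoters (8.86%). Read on the other strand this motif begins with pyrimidines and can overlap a run. Both are matches of letters, and for several genes the annotated start may lie some bases from the true one. The 27 tested members with a run of at least 8 in any promoter had a median log2 fold change of 0.54 between genotypes, and the 33 without one had 0.55.

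The library check came first. Npc1 stood at 53.3, 50.4 and 45.5 TPM in WT replicates 1 to 3 and at 4.10, 4.42 and 3.16 TPM in Npc1-/- replicates 1 to 3. The Y-linked Ddx3y was present in 5 libraries and at 0 in Npc1-/- replicate 3, where Xist was 15.6 TPM, so the sexes were unequal between the groups. Depth, estimated from the steps of low values, was 40250000 to 50250000 fragments per library. The summed mature oligodendrocyte markers, among them Mbp and Mog, made up 22.2% to 31.3% of all TPM, so the labelled lineage was strongly represented. Mbp alone took 18.8% to 26.1%. Because TPM is a share of a fixed total, levels are given as scaled TPM, which is TPM divided by a median-of-ratios size factor of the sample. These size factors lay between 1.04 and 1.295 for the WT libraries and between 0.727 and 1.10 for the Npc1-/- libraries.

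At the scaled level almost all of the ribosomal protein mRNAs were higher in Npc1-/- cells, by a similar proportion, but none passed the test over all genes. A gene was called when its limma p, adjusted over all genes by Benjamini-Hochberg, was below 0.05 and its log2 fold change was 0.1 or more in size. Of the 89 members, 85 had a mean TPM of at least 0.5 and were tested, and 0 were called, where the background was 0.813% of the 15245 genes tested. At an unadjusted p below 0.05, 78 of the 85 were higher in Npc1-/- (background 10.6% of all genes) and 0 were lower (background 11.6%). In 69 of the 85, the lowest Npc1-/- value exceeded the highest WT value (background 13.3%). These members share libraries and size factors, so they are not separate pieces of evidence. Their adjusted p ran from 0.0567 for Rplp0 to 0.998, and the median log2 fold change was 0.55, a fold of 1.47, against 0.01 over all genes tested.

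The whole family was summed first. The summed scaled TPM of the members was 33769, 40119 and 43175 in WT replicates 1 to 3 and 47490, 61554 and 65352 in Npc1-/- replicates 1 to 3. The genotypes did not overlap, but the WT samples differed among themselves by more than the gap between the highest WT and the lowest Npc1-/- sample. The means were 39021 ± 4799 and 58132 ± 9410 (SD, n = 3), a ratio of 1.49. As a percentage of all deposited TPM the same genes took 4.37%, 4.44% and 4.48% in WT and 5.23%, 5.26% and 4.75% in Npc1-/-. Here too the groups did not overlap, but the ratio of the means was 1.15 (4.43% ± 0.0552 and 5.08% ± 0.288, SD, n = 3). The size of the difference thus depended on the scale, and Npc1-/- replicate 3 moved from the highest of its group to the lowest. With TPM as deposited, the median log2 fold change of the members was 0.18 and that of all genes was -0.33, a difference of 0.51, and 79 of 85 members lay above 0. The groups were then separate in 47 of 85 members. The share of all genes separate on this scale was not taken, so this count has no background.

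**Figure D1:**
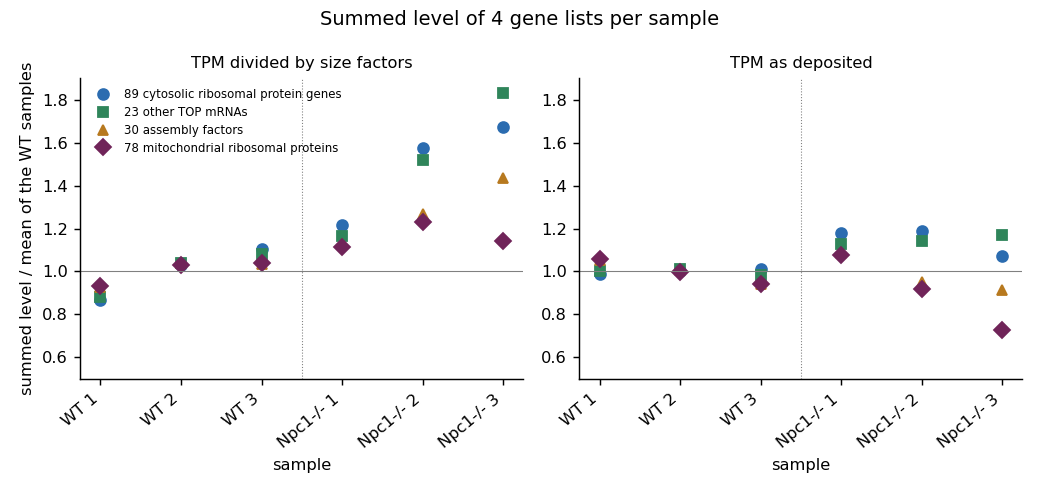
Summed level of 4 gene lists in each of the 6 samples, divided by the mean of the WT samples, from TPM divided by size factors (left) and TPM as deposited (right). The 89 ribosomal protein genes lie above all WT samples in each Npc1-/- sample on both scales, while the assembly factors and mitochondrial ribosomal proteins overlap with WT on the right.

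The 77 tested members with a plain name were considered apart from the other 8, which carry an l in their symbol or are the Rps3a2 and Rps3a3 copies. The plain members comprised 46 genes of the large and 31 of the small subunit. All 77 had positive log2 fold changes, from 0.36 for Rpl10a to 0.72 for Rps12, and the quartiles were 0.49 and 0.61. The median was 0.54 for the large and 0.59 for the small subunit, and their difference was not tested. The ratio of summed large to summed small subunit mRNA was 1.36, 1.34 and 1.31 in WT and 1.33, 1.29 and 1.27 in Npc1-/-, and the genotypes overlapped. With each sample left out in turn, all 77 stayed above 0, and the lowest value was 0.30.

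**Figure D2:**
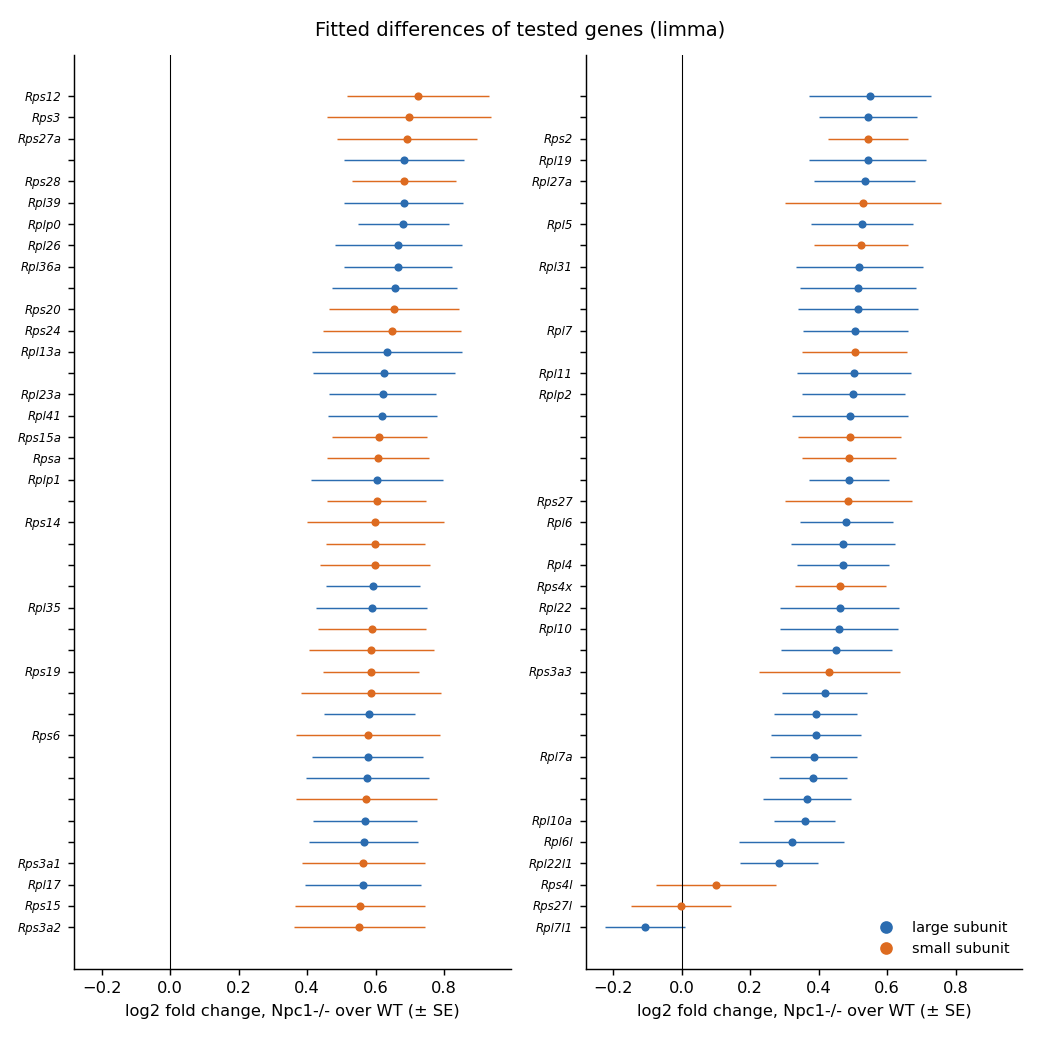
Fitted log2 fold change of Npc1-/- over WT, with its SE, for 80 of the 85 tested members in order of size; Rps12l1 is left out because its SE is 1.47, another 4 are not reported here, and only genes named in the text are labelled. Of the genes shown, 78 lie above 0, and Rps27l and Rpl7l1 are the 2 that do not.

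The samples were ordered alike by nearly all members. WT replicate 1 had the lowest WT value in 76 of the 77 plain members and WT replicate 3 the highest in 65. Among the Npc1-/- samples, replicate 1 was lowest in 76 and replicate 3 highest in 65. The median ratio of the highest to the lowest WT sample was 1.27, and the median ratio of the lowest Npc1-/- sample to the highest WT sample was 1.10. After the genotype means were removed, the correlation of a plain member with the mean of the others over the 6 samples had a median of 0.979 and a lowest value of -0.14, for Rpl10a. The samples share a size factor per library, which enters every gene alike.

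**Figure D3:**
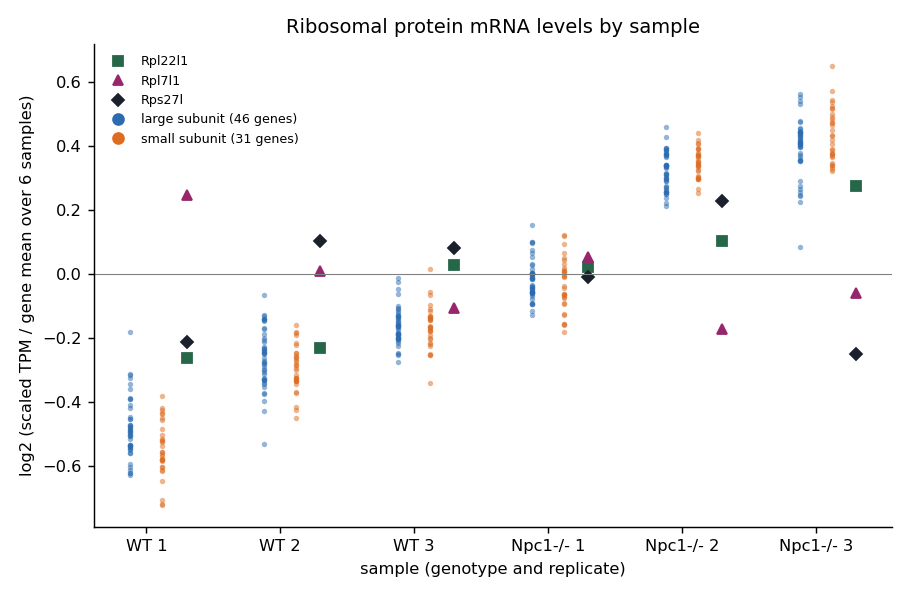
Level of each plain-named member in each sample, as log2 of scaled TPM over the gene's mean of the 6 samples, with large subunit genes in blue and small subunit genes in orange. The points of both subunits shift together from sample to sample, and the separate markers for Rpl7l1 and Rps27l do not follow them.

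The most abundant members encode parts of both subunits. TPM is a level per length of transcript, so genes may be compared on it. Rplp1, an acidic protein of the stalk that recruits translation factors, had 1365, 1757 and 1820 scaled TPM in WT and 2056, 2714 and 2748 in Npc1-/-. Rps24, of the small subunit, had 1297, 1635 and 1652 in WT and 1884, 2541 and 2813 in Npc1-/-. Rplp1 was above Rps24 in every library but Npc1-/- replicate 3, so their order was not the same in all libraries. The next were Rpl13a and Rps15, with means over the 6 samples of 1701 and 1569 scaled TPM. In each of these 4 the Npc1-/- samples all lay above the WT samples (background 13.3%). Their log2 fold changes ran from 0.55 for Rps15 to 0.65 for Rps24. At the other end of the plain members were Rpl39, at a mean of 138, and Rps20, at 147 scaled TPM.

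The stalk is built on Rplp0, the protein that anchors the acidic pair to the large subunit. Rplp0 stood at 375, 430 and 450 scaled TPM in WT and at 583, 713 and 720 in Npc1-/-. Its groups were clearly apart, and with a log2 fold change of 0.68 ± 0.13 (SE) it had the smallest adjusted p of the family by limma, 0.0567. Its partners Rplp1 and Rplp2 had 0.60 ± 0.19 and 0.50 ± 0.15, with adjusted p of 0.130 and 0.112. All Npc1-/- samples lay above all WT samples in each of the 3, as in 69 of all 85 tested members (background 13.3%).

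Rpl5 and Rpl11 form a particle with 5S ribosomal RNA, which can also bind and inhibit Mdm2, the negative regulator of p53. Rpl5 had 284, 312 and 355 scaled TPM in WT and 387, 457 and 532 in Npc1-/-, a log2 fold change of 0.53 ± 0.15. Rpl11 had 630, 753 and 803 in WT and 854.5, 1084 and 1172 in Npc1-/-, a log2 fold change of 0.50 ± 0.17. The 2 genes were thus separated to a like degree, with limma adjusted p of 0.1002 and 0.137. Mdm2 itself had a log2 fold change of 0.05 and Trp53, which encodes p53, of -0.13, both within their SE (0.15 and 0.17).

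Proteins near the exit tunnel, where the nascent chain leaves the large subunit, were represented by Rpl4, Rpl17, Rpl19, Rpl23a, Rpl26, Rpl31, Rpl35 and Rpl39. Their median log2 fold change was 0.58, from 0.47 for Rpl4 to 0.68 for Rpl39. The groups were separate in 7 of the 8, against 69 of all 85 tested members (background 13.3% of all genes). Rpl31 was the exception, with 539 in WT replicate 3 and 515 in Npc1-/- replicate 1. Rpl39, the shortest of these proteins, had 89.95, 102 and 124 scaled TPM in WT and 134, 190 and 186 in Npc1-/-. It is one of 4 X-linked members, so Npc1-/- replicate 3 was left out as a check. Without it the log2 fold changes were 0.60 for Rpl39, 0.56 for Rpl36a, 0.38 for Rps4x and 0.33 for Rpl10, against 0.68, 0.66, 0.46 and 0.46 with it. The median of all tested members also fell without that library, from 0.55 to 0.46, so the fall was not particular to X-linked members.

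A list of 9 small subunit proteins along the mRNA path held, among others, Rps2, Rps3, Rps14 and Rps28. Their median log2 fold change was 0.60. The groups were separate in 7 of the 9, against 69 of all 85 tested members (background 13.3% of all genes). Rps3, which sits at the mRNA entry, had one of the largest differences at 0.70 ± 0.24, but its groups overlapped, since WT replicate 3 stood at 427 scaled TPM and Npc1-/- replicate 1 at 410. Rps14 also overlapped. Rps2 had 416, 467 and 481 in WT and 606, 671 and 711 in Npc1-/-. Its log2 fold change was lower than that of Rps3, 0.54 ± 0.12, but its limma adjusted p was 0.0623 because its replicates lay closer together. Rps28 had 0.68 ± 0.15 with an adjusted p of 0.0666.

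Rps6, the substrate of S6 kinase that is widely used as a readout of mTORC1 activity, had 528, 660 and 699 scaled TPM in WT and 708, 975 and 1175 in Npc1-/-. The lowest Npc1-/- sample was just above the highest WT sample, and the log2 fold change was 0.58 ± 0.21 with a limma adjusted p of 0.165. Its phosphorylation was not measured here. Rps27a, made as a fusion with ubiquitin, had 386, 517 and 554 in WT and 607, 827 and 928 in Npc1-/-, a log2 fold change of 0.69 ± 0.20. Fau, which is outside the name rule and is made as a fusion with a ubiquitin-like domain, was alike at 0.56 ± 0.17.

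The largest difference was that of Rps12, of the small subunit. It had 741, 953 and 1036 scaled TPM in WT and 1157, 1641 and 1734 in Npc1-/-, a log2 fold change of 0.72 ± 0.21 and a limma adjusted p of 0.103. Its groups were separate, but it lay within its SE of the median of the family. Mutations of 9 listed members, among them Rps19, Rpl5 and Rpl11, are known from Diamond-Blackfan anemia, in which 1 copy of a ribosomal protein gene is lost. These 9 had a median log2 fold change of 0.57, with separate groups in 7, against 69 of all 85 tested members (background 13.3%). They were thus placed like the rest. The smallest difference of a plain member was that of Rpl10a, with 166, 168 and 161 in WT and 210, 227 and 200 in Npc1-/-. Its groups were apart and its replicates close, with a log2 fold change of 0.36 ± 0.09 and a limma adjusted p of 0.0785. With TPM as deposited its sign turned, to -0.014, and its groups overlapped, at 167 to 215 TPM in WT and 145 to 231 TPM in Npc1-/-. Rpl8 was the other plain member below 0 on that scale, at -0.0062.

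Among the 8 tested members that are relatives or copies of another ribosomal protein gene, log2 fold changes ran from -0.11 for Rpl7l1 to 0.55 for Rps3a2. The 4 described here had smaller differences than every plain member. Rps27l, a paralogue of Rps27 that p53 can induce, had 41.3, 51.4 and 50.6 scaled TPM in WT and 47.5, 56.0 and 40.2 in Npc1-/-. The groups overlapped fully, with a log2 fold change of -0.00 ± 0.15 and a limma adjusted p of 0.998. Rpl7l1, a relative of Rpl7, had 24.8, 21.1 and 19.5 in WT and 21.7, 18.6 and 20.1 in Npc1-/-, with -0.11 ± 0.12 and an adjusted p of 0.654. Rpl22l1, a paralogue of Rpl22, had 27.2, 27.8 and 33.3 in WT and 33.1, 35.0 and 39.5 in Npc1-/-. It overlapped by a small margin, with 0.29 ± 0.11 and an adjusted p of 0.199. Rps4l, a transcribed processed pseudogene of Rps4x in the annotation, had 0.10 ± 0.17 and overlapping groups.

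A share within a pair of genes does not depend on the size factor. Rps27l made up 10.998%, 10.8% and 9.63% of the summed TPM of Rps27l and Rps27 in WT and 9.31%, 8.45% and 5.73% in Npc1-/-. Every Npc1-/- sample was below every WT sample, and the lowest was replicate 3. Rpl36al, which lies outside the name rule, made up 30.3% ± 0.856 of its pair with Rpl36a in WT and 26.9% ± 1.42 in Npc1-/- (SD, n = 3), again with no overlap. For Rps4l the shares of the pair with Rps4x were 3.96% ± 0.454 and 3.11% ± 0.405, and the closest samples were at 3.524% in WT and 3.519% in Npc1-/-. The shares of Rpl7l1 (3.92% ± 0.799 and 2.60% ± 0.629) and of Rpl22l1 (10.1% ± 1.11 and 9.03% ± 0.919) overlapped between genotypes. With 3 samples against 3, an exact permutation test cannot go below a two-sided p of 0.10, and none was run.

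**Figure D4:**
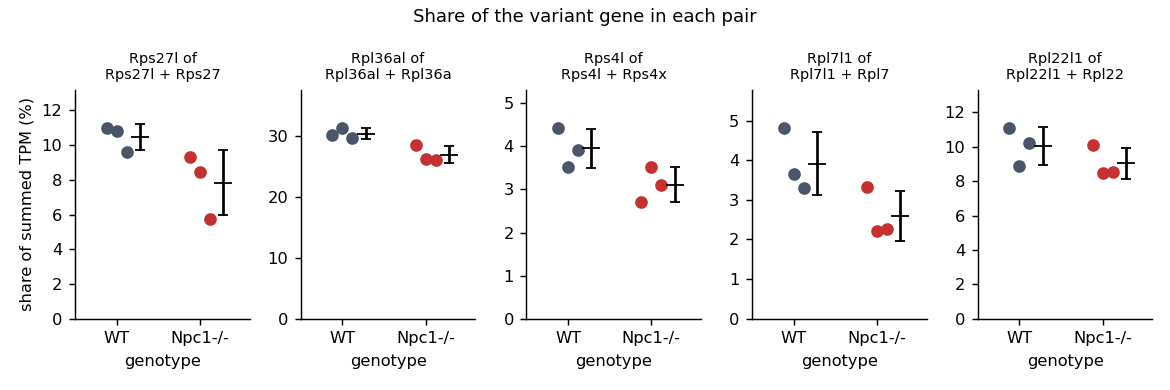
Share of a variant gene in the summed TPM of its pair, in percent, for 5 pairs; points are single samples and bars the mean and SD of 3. The Npc1-/- samples lie below the WT samples for Rps27l, Rpl36al and Rps4l, and overlap with them for Rpl7l1 and Rpl22l1.

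The 4 members that were not tested are Rpl3l, known from muscle, Rpl10l and Rpl39l, known from testis, and Rpl32l, an annotated processed pseudogene. Rpl10l was listed at 0 in every library. Rpl3l had scaled TPM of at most 0.129 in 5 libraries and 0.550 in Npc1-/- replicate 3. Rpl39l reached 0.301 and Rpl32l 0.655 in their highest library. As deposited, the highest values of Rpl3l, Rpl39l and Rpl32l were 0.40, 0.39 and 0.56 TPM. For a transcript of 1000 effective bases, 1 fragment was worth 0.0278 to 0.0371 deposited TPM, so these values stand for few fragments.

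Near-identical copies limit how well single genes were measured. Transcripts of another gene matched a member at 95% identity or more, over at least 80% of the shorter one, for 79 of the 85 tested members, and in 23 of them the copies summed to at least 10% of the member's TPM. Rpl41 had a mean of 1001 TPM and its copy Gm10076 had 829. Rps2 had 552 TPM and the pseudogene Rps2-ps10 had 732, and Rpl26 had 509 with 504 for Gm15772. The division of reads within such pairs is uncertain. Rps12l1, a processed pseudogene that matches Rps12, was at 8.37 scaled TPM in WT replicate 3, at 8.53 in Npc1-/- replicate 1 and at 0 in the other libraries. Its fitted difference of 0.01 ± 1.47 is therefore not interpretable. When every member was summed with its copies that are no members, the median log2 fold change was 0.55 and 81 of 85 members had an unadjusted limma p below 0.05, with 0 called. Among the other members annotated as processed pseudogenes, Rps3a2 had a log2 fold change of 0.55 ± 0.19 at a mean of 36.1 TPM, against 593 TPM for Rps3a1, and Rpl6l had 0.32 ± 0.15 at 3.10 TPM, against 456 TPM for Rpl6.

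Length is a feature the members share and the rule did not use. Their median transcript length was 777.5 bases, against 2536 over all tested genes, with a median of 5 exons against 8. Across all genes the log2 fold change was lower in longer genes (Spearman rho -0.29 across 15230 genes, which are not independent), and in the bin of shortest genes, with a median of 438 bases, the median log2 fold change was 0.27. After a curve on length was removed from the values, an alternative chosen after seeing the data, the median of the members was 0.36, and 81 of 85 members, among them all 77 plain ones, stayed above 0. Within the plain members the difference had little relation to length (rho -0.15) and a weak one to level (rho 0.26). Rps15a and Rps20, with median annotated transcripts of 5130 and 3706 bases, had log2 fold changes of 0.61 and 0.65. With the length curve removed they had 0.71 and 0.72. These lengths are medians over annotated transcripts, and which transcripts were present was not measured. The 2 genes were therefore not taken as a check of the length trend.

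**Figure D5:**
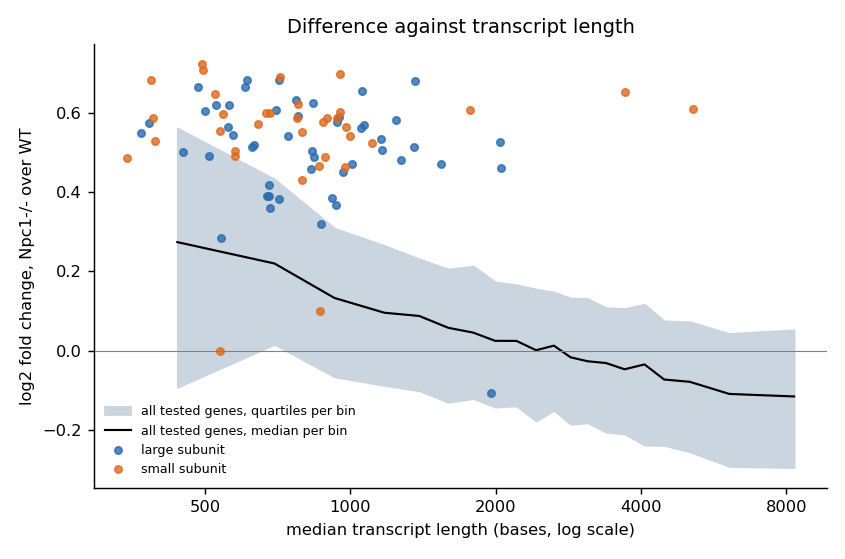
Log2 fold change of Npc1-/- over WT against the median annotated transcript length of a gene, in bases on a log scale, with the median (line) and quartiles (band) of all tested genes in 20 bins and the members as points. All points but Rps27l, Rps4l and Rpl7l1 lie above the line, and Rps12l1 is not drawn.

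Small nucleolar RNAs, which guide the modification of ribosomal RNA, are often encoded in introns of ribosomal protein genes. On the same strand, 30 of the 85 tested members (35.3%) held 58 annotated snoRNAs, against 1.84% of all tested genes with at least 1. Rpl4 held 5 and Rpl13a held 4. The median log2 fold change was 0.57 for host members and 0.54 for the others. Hosts and other members were thus placed alike.

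Other mRNAs of the TOP class had differences of the same sign as the members at the scaled level. Of 23 tested, among them translation elongation and initiation factors, 0 were called (background 0.813% of all genes). At an unadjusted limma p below 0.05, 14 were higher (background 10.6%) and 0 lower (background 11.6%). All 23 lay above 0 at the scaled level, and the median log2 fold change was 0.40. With TPM as deposited they went both ways, for example -0.23 for Btf3 and 0.73 for Gas5. Gas5, a non-coding snoRNA host with a TOP start, had the largest difference at 1.10 ± 0.35. Its scaled TPM lay between 147 and 273 in WT samples and between 269 and 658 in Npc1-/- samples, so its groups overlapped. Npm1, a nucleolar chaperone, had 0.89 ± 0.26 with separate groups, and Eef1b2, the exchange factor of the elongation factor, 0.83 ± 0.20. As a percentage of all deposited TPM the 23 took 0.910% to 0.936% in WT and 1.04% to 1.08% in Npc1-/-. Much of their sum was Eef1a1 and Tpt1, with mean scaled TPM of 2716 and 1820 of 8121 in WT. The 4 listed ribosomal proteins outside the name rule, among them Rack1, all had Npc1-/- samples above WT (background 13.3%). Their median was 0.49, and 0 were called (background 0.813%).

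Factors that build ribosomes were closer to the genome as a whole. Of 30 assembly factors and polymerase I components, 0 were called (background 0.813% of all genes). At an unadjusted limma p below 0.05, 4 were higher (background 10.6%) and 0 lower (background 11.6%). The median log2 fold change was 0.11. Ncl, nucleolin, had 0.90 ± 0.25. Tsr1, which acts in maturation of the small subunit, had 0.60 ± 0.14. Fbl, the fibrillarin that methylates ribosomal RNA, had 42.4, 45.7 and 40.3 scaled TPM in WT and 56.2, 63.1 and 60.7 in Npc1-/-, a log2 fold change of 0.48 ± 0.09 and a limma adjusted p of 0.0547. Nop10, of the pseudouridylation particle, had 0.46 ± 0.09 and an adjusted p of 0.0567. The summed scaled TPM of the 30 was 664 to 745 in WT and 807 to 1028 in Npc1-/-, a ratio of the means of 1.28 without overlap. Much of that rise was Ncl, with a mean of 155 of 716 in WT and 300 of 914 in Npc1-/-. As a percentage of deposited TPM the groups overlapped, with 0.0818% ± 0.00464 in WT and 0.0804% ± 0.00753 in Npc1-/- (SD, n = 3).

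Regulators of ribosomal protein synthesis showed no common direction. Of 15 genes, 0 were called (background 0.813% of all genes). At an unadjusted limma p below 0.05, 0 were higher (background 10.6%) and 0 lower (background 11.6%). The log2 fold change was above 0 in 5, and the median was -0.08. Larp1, the protein that binds TOP mRNAs, had -0.12 ± 0.09, with every Npc1-/- value below the WT values. The largest values were those of Mycn, at 0.60 ± 0.40, Rps6kb2, a kinase of Rps6, at 0.48 ± 0.21, and Eif4ebp2, a repressor of cap-dependent translation, at -0.24 ± 0.12.

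The 78 mitochondrial ribosomal proteins, encoded in the nucleus for the separate ribosome of mitochondria, had a median near that of the assembly factors. Of the 78, 0 were called (background 0.813% of all genes). At an unadjusted limma p below 0.05, 17 were higher (background 10.6%) and 1 lower (background 11.6%). In 25, all Npc1-/- samples lay above WT (background 13.3%). The log2 fold change was above 0 in 71, with a median of 0.13. The largest was Mrps24, at 0.53 ± 0.11 with a limma adjusted p of 0.0624, followed by Mrpl24 at 0.51 ± 0.13 and Mrpl30 at 0.46 ± 0.11. Their summed scaled TPM was 2077 to 2305 in WT and 2481 to 2732 in Npc1-/-, a ratio of the means of 1.16 without overlap. Their summed percentage of deposited TPM was 0.254% ± 0.0148 in WT and 0.230% ± 0.0445 in Npc1-/-, and there the groups overlapped.

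Markers of other cell types differed with genotype, and in bulk samples fewer cells of a type and less RNA per cell cannot be told apart. All 5 microglial markers were below WT in every Npc1-/- sample, with a summed scaled TPM of 135 to 218 in WT and 57.8 to 110 in Npc1-/-. Tmem119 was called lower (background of calls in either direction 0.813% of all genes). The share of all genes below WT in every Npc1-/- sample was not taken, so such counts here have no background. All 4 endothelial markers and 2 of 3 mural cell markers were below WT as well, with sums of 412 to 598 against 292 to 352 and of 247 to 359 against 145 to 193. All 6 neuronal markers had positive differences at the scaled level, with sums of 78.1 to 103 in WT and 126 to 156 in Npc1-/-. Nefl and Nefm were called (background 0.813% of all genes). The other neuronal markers overlapped between genotypes, from 0.06 ± 0.27 for Syt1 to 0.44 ± 0.30 for Tubb3. With TPM as deposited, Rbfox3, Snap25 and Syt1 fell below 0, while Nefl, Nefm and Tubb3 stayed above it. The astrocyte markers went both ways. Gja1 (-0.81 ± 0.16 on the log2 scale, limma adjusted p 0.0567), Aqp4 (-0.42 ± 0.18) and Aldh1l1 (-0.23 ± 0.11) were below WT in every Npc1-/- sample, Gfap was above it (1.01 ± 0.29), and Aldoc overlapped, with sums of 496 to 519 in WT and 351 to 733 in Npc1-/-. The 3 red blood cell markers overlapped between genotypes, with sums of 2406 to 6038 in WT and 1036 to 4349 in Npc1-/-. The 3 progenitor markers overlapped as well, with sums of 39.6 to 40.4 against 33.7 to 49.3. So did the 4 immature oligodendrocyte markers, with sums of 2241 to 3312 against 3138 to 5815. Of these 4, Bcas1 (0.74 ± 0.34) and Dusp15 (0.29 ± 0.13) lay above 0. Enpp6 (-0.14 ± 0.13) and Gpr17 (-0.22 ± 0.27) lay below. Most of the sum was Bcas1, whose mean was 2247 of 2885 in WT and 3845 of 4441 in Npc1-/-. The summed mature oligodendrocyte markers were 171703 to 242747 in WT and 217267 to 431356 in Npc1-/-, with 1 of 6 markers separate and higher (background 13.3%). They were lowest in WT replicate 1 and highest in Npc1-/- replicate 3, as the members were. Mitochondrially encoded RNA was 20.6% to 23.2% of TPM in WT and 22.6% to 24.7% in Npc1-/-. Without Npc1-/- replicate 3, the library with Xist, the median log2 fold change of the members was 0.46. The part of the marker values in the difference of the ribosomal protein genes was not tested.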

How the data were processed

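O4-enriched brain cells of 3 WT and 3 Npc1-/- mice were compared, grouped by the genotype in the sample labels. The authors deposited TPM and FPKM per gene with 2 decimals. The deposited FPKM was TPM times one factor per sample (0.653 to 0.721). The study's methods give bbduk, STAR, featureCounts and GRCm38, while the submitters' processing notes name cutadapt 2.3, FastQC 0.11.8, STAR 2.7.8a, RSEM 1.3.3 and MultiQC 1.7. Which of these made the TPM, how reads shared by copies were divided and whether strand was used are not given in the sources used here.

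TPM was divided by median-of-ratios size factors, 0.5 was added and log2 was taken, so fold changes of low genes are understated. Genes whose TPM averaged 0.5 or more over the samples entered a fit by genotype alone in limma 3.58.1 (R 4.3.3; lmFit, then eBayes with a trend), which was tested on simulated data. No count test was run, because whole reads were recovered only where a gene has a single transcript. Depth came from the steps of low FPKM values in genes with a single transcript, where 82.0% to 86.1% of values came within 0.15 of whole fragments. Gene models came from GENCODE M21 (55227 of 55492 identifiers found), promoters from RefSeq, and copies from blastn 2.17.0 alignments of at least 200 bases.

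The members and lists were chosen with earlier results of these data known. Members were named if called, among the 5 highest in level, among the 5 highest or 5 lowest log2 fold changes, or in the paralogue or role lists, and pathway genes if called or among the 3 largest of their list. Rpl7a, Rpl8, Rpl10a, Rps15a, Rps20, Larp1, Mdm2, Trp53, Tsr1, Fbl, Nop10 and members cited for copies or disease were named after their values were seen. Some members that this rule names are not reported here. Alternatives were FPKM, TPM as deposited, quantile normalization, size factors without members, pseudocounts of 0.1 and 1, no filter, a TPM filter of 5, the limma fit with no trend or with robust estimation, copies summed in, a replicate block and each sample left out.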

Additional observations from a re-analysis of the deposited data

How the results depend on the processing

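The median log2 fold change of the members, 0.55, was 0.18 with TPM as deposited, 0.23 after quantile normalization and 0.24 with TPM rescaled without Mbp (chosen after seeing the data), and 0.46 to 0.69 with each sample left out. No member was called with any sample left out, although the calls over all genes then ran from 4 to 19, and were 486 without Npc1-/- replicate 3. The count of members called, 0, became 1 after quantile normalization, 1 with TPM rescaled without Mbp and 2 at a mean TPM of at least 5 (Rplp0, limma adjusted p 0.0428, and Rps2, 0.0496), each called higher. Calls over all genes were 124, and 924 with TPM as deposited, 936 rescaled without Mbp, 240 after quantile normalization, 447 at a mean TPM of at least 5, 42 without trend and 21 without a filter.

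With the replicate number as a block, 79 members were called, all higher, of 2011 genes. Same-numbered samples come from different mice, and their deviations correlated at 0.414, 0.0602 and 0.326, so the pairing was not taken as shown; each of the 6 samples did correlate best with its own number, a hint from the data and not from the design.

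As deposited, Rpl10a and Rpl8 turned to -0.014 and -0.0062. Rpl22l1 turned to -0.083 as deposited and -0.027 rescaled without Mbp. Rps4l turned to -0.26 as deposited, -0.21 rescaled and -0.069 with the length curve removed, and with each sample left out it ran from -0.015 to 0.30. Rps27l was -0.37 as deposited, -0.27 with the length curve removed and 0.0029 with size factors without members, and with each sample left out it ran from -0.12 to 0.11. Rps12l1 ran from -1.37 to 1.39 in such fits and was -0.33 with the length curve removed. The causes were not tested. Values that are 0 or stand for few fragments limit the 4 untested members.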
